A study of Mus musculus with 4 samples.

Results

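Open chromatin at 45 genes of the type I interferon response was compared between B16F10 cells that carried a scrambled guide and B16F10 cells that carried a guide against Arid1a. The genes were taken from a named list of interferon ligands, receptor chains, transcription factors, nucleic acid sensors and interferon-induced genes, and the rule for membership uses no measured value. All 45 were found by symbol among 21885 genes of the mouse annotation (protein-coding genes, with Mx1 and Mx2, which the annotation lists as transcribed pseudogenes). A peak was assigned to a gene when it touched the gene body or the 10 kb on either side. Peaks of the 4 libraries that overlapped by at least 1 bp were merged into regions, and the windows of the 45 genes held 157 of the 103629 regions. A region within 1 kb of the start or the end of one of the 45 genes was called a gene-end region, and a region farther than 1 kb from the ends of every gene was called distal. The ends are the outer ends of the gene model, so a distal region can lie over an inner transcript start, as inside Adar and Trim30a. The 19 regions at the ends of other genes alone are in neither class.

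Type I interferons are secreted by cells that sense viral or misplaced nucleic acid. They bind a receptor made of IFNAR1 and IFNAR2, whose kinases phosphorylate STAT2, which acts with IRF9 in a complex that binds interferon-stimulated response elements (ISREs) in the promoters of the induced genes. In tumour cells the pathway is known for raising antigen presentation and for chemokine signals to T cells, and many of its sensors and antiviral effectors are themselves interferon-induced.

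B16F10 is a mouse melanoma cell line, grown here in culture. Arid1a codes for a DNA-binding component of BAF, the mammalian SWI/SNF complex, which slides and evicts nucleosomes. There were 2 libraries from cells with the scrambled guide (sgScramble) and 2 from cells with the Arid1a guide (sgArid1a). The parental line was the same in both groups, and the labels name no treatment such as added interferon, no clone and no passage. Accessibility was measured with Omni-ATAC, a transposase assay, with 50000 cells per reaction per the labels. Whether the 2 libraries of a group were made from different cultures is not given in the labels, and their spread may be purely technical.

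The files hold peaks and no read counts, so the depth of the libraries is unknown. The sgScramble lists held 82319 and 85613 peaks and the sgArid1a lists 65353 and 71255, so the sgArid1a lists were shorter throughout the genome. The part of these shorter lists in the differences given here was not tested. Cover at the ends of Arid1a itself was 1448 and 1275 bp with sgScramble and 1368 and 1373 bp with sgArid1a, and these values overlapped. Peak lists do not show whether the guide disrupted the gene. All 7 melanocyte genes examined had a gene-end peak in all 4 lists, as did 3 of 16 markers of other cell types (Cd4, Cd79a and Pdgfra), while 10 of those 16 had none in any list.

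Promoter sequences are shown for 9 of the genes, because an ISRE lies in some promoters that were under a peak in every library and in others that were under none. Each is the 160 bases before a transcript start in RefSeq (GRCm38.p6), 5′ to 3′ on the strand of the gene, and those of Oas1a, Oas3 and Ddx60 run a few bases into the gene model, whose outer end lies farther upstream. Capitals mark the ISRE core, searched as GAAANNGAAA on both strands. The promoters of Ifnb1, Isg15 and Oas3 were covered at 0 of the 160 bases in all 4 lists.
Ifnb1, chr4:88522795-88522954 (minus strand): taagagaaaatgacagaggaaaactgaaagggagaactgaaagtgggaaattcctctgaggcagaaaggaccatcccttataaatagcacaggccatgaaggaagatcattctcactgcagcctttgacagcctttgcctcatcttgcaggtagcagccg
Isg15, chr4:156200819-156200978 (minus strand): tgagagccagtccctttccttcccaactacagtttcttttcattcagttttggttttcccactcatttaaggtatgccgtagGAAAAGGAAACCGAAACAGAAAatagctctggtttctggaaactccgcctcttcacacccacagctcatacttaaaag
Oas3, chr5:120777660-120777819 (minus strand): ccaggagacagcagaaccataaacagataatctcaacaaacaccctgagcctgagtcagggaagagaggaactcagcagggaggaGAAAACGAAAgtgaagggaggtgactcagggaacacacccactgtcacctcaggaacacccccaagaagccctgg
The other 6 were covered at 160 of 160 bases in all 4 lists.
Ifit1, chr19:34640729-34640888 (plus strand): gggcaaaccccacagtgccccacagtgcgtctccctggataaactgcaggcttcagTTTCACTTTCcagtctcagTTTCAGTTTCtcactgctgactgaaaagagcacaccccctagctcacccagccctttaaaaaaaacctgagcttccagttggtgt
Oas1a, chr5:120907526-120907685 (minus strand): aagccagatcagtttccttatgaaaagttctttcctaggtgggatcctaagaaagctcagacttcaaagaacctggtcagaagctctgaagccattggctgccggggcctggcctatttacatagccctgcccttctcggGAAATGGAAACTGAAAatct
Oas1g, chr5:120887614-120887773 (minus strand): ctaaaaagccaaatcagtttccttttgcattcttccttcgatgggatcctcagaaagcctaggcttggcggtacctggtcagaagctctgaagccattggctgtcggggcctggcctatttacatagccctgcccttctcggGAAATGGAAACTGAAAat
Rsad2, chr12:26456453-26456612 (minus strand): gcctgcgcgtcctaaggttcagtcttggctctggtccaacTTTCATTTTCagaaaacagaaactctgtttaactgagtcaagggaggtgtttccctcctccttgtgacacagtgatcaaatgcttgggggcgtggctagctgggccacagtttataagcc
Bst2, chr8:71537473-71537632 (minus strand): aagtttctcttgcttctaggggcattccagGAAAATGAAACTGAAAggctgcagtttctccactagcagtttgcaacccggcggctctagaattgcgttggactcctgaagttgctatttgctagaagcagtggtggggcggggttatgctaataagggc
Ddx60, chr8:61927927-61928086 (plus strand): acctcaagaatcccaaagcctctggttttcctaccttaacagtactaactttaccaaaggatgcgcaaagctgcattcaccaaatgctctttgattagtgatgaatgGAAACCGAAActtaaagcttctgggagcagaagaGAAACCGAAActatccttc

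The Isg15 promoter held 3 overlapping copies of the core between positions -78 and -57 from the start, and the Oas3 promoter held 1. Ifit1 carried a pair of cores on the opposite strand, which read TTTCACTTTC and TTTCAGTTTC. Oas1a and Oas1g carried the same overlapping pair close to the start. Their promoters matched at 207 of 298 bases (69.5%) when aligned at a single shift without gaps. The promoters of Ifit3 and Ifit3b, aligned in the same way, had 201 of 268 bases identical (75.0%). The Ifnb1 bases printed held no GAAANNGAAA, which says only that these letters are not in that window.

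RefSeq promoter entries of 300 bases (250 before the start and 50 after) were found for 35 of the 45 genes, 42 promoters in all. Of these, 17 promoters of 16 genes (40.5%) held the ISRE core, against 3.44% of 32851 promoters of 27025 genes. A second motif, TTCNNNGAA on both strands, was in 9 (21.4%), against 8.3%, and it overlapped an ISRE core in 1 of the 42. A peak touched 35 of the 42 promoters (83.3%) in all 4 lists, against 40.4% of all promoters, while 5 had no peak and 2 had one in some lists only. Among the 17 with an ISRE core, 14 (82.4%) were under a peak in all 4 lists, and Ifna4, Isg15 and Oas3 were under none. Across all promoters with the core, 33.2% were under a peak in all 4 lists. Of 27 core matches, 21 lay wholly inside a peak in every list and 6 lay outside every peak, so no match was covered in 1 group and bare in the other.

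Gene ends were open at most of the 45 genes in both groups. Cover, the number of bases within 1 kb of either end that lay under a peak, was above 0 in all 4 lists for 38 of 45 genes (84.4%), against a background of 57.2% of all genes. It was 0 in all 4 lists for Ifna4, Isg15 and Ifi44, and present in some lists only for Ifnb1, Oas2, Oas3 and Oasl1. Of the 49 gene-end regions, 42 (85.7%) were peaks in all 4 lists, near the 81.8% of gene-end regions of all genes. Of the 45 that were peaks in both sgScramble lists, 1 (2.22%, 95% exact binomial interval 0.0562 to 11.8) was in neither sgArid1a list, against a background of 3.08% of gene-end regions, which is a like share. None of the 42 in both sgArid1a lists was missing from both sgScramble lists, which allows a share of up to 8.41% by the exact interval and includes the 0.452% over all genes. These intervals cover counting error only.

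**Figure D1:**
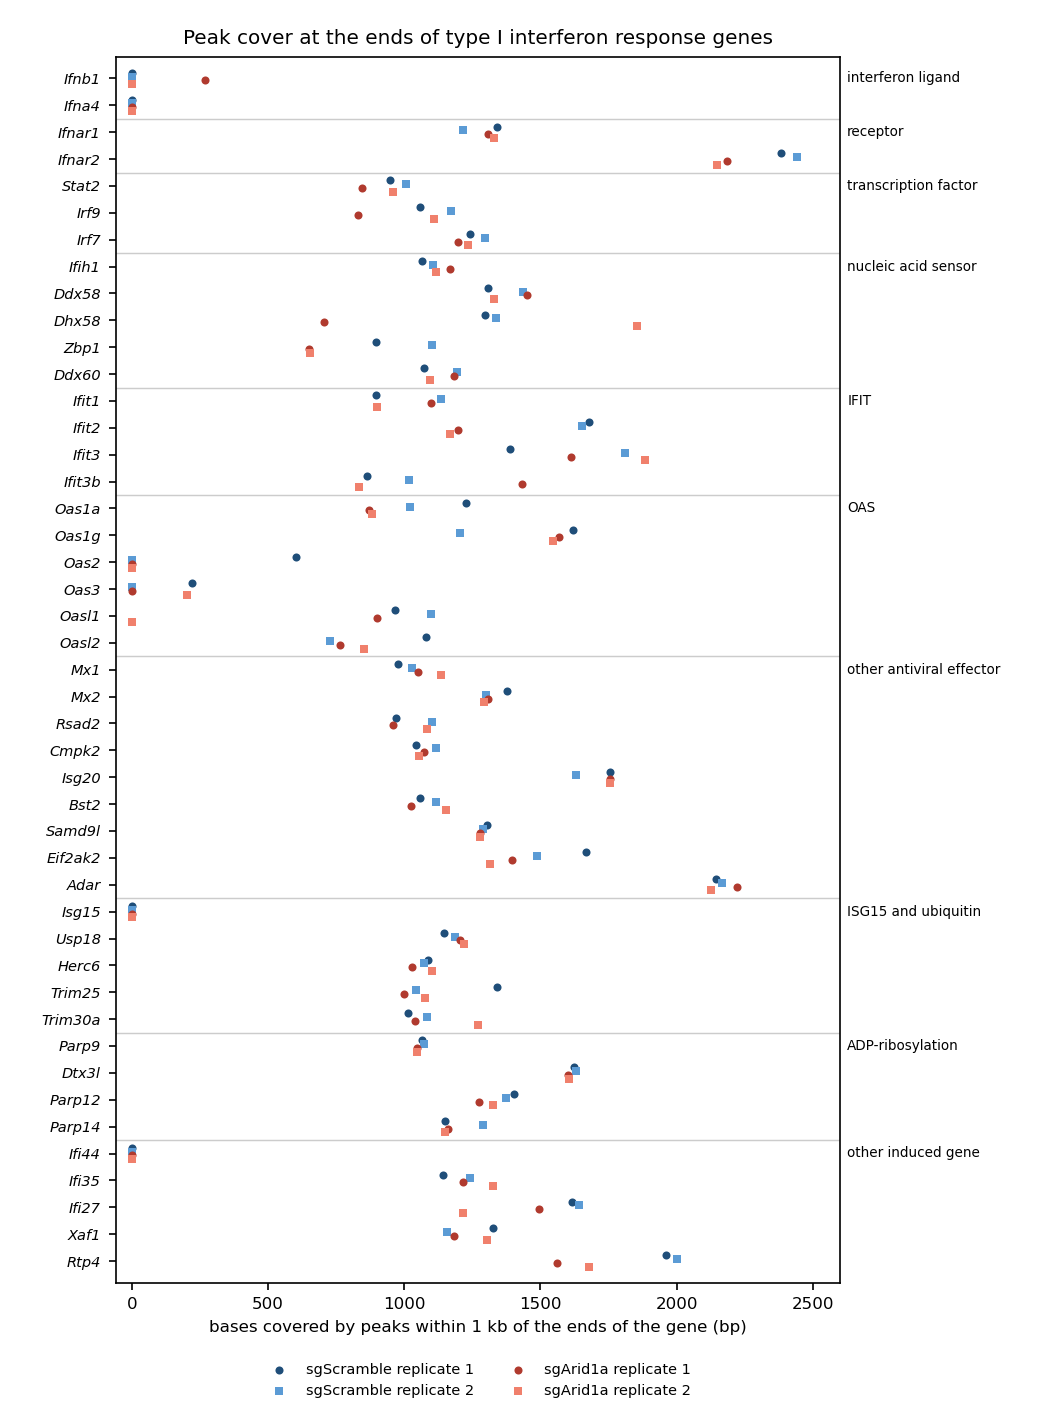
Bases within 1 kb of either end of each gene that lay under a peak (x axis, bp) for the 45 genes (y axis, grouped by role), with 1 dot per library. Most genes lie near 1000 bp or above in all 4 libraries, while Ifna4, Isg15 and Ifi44 are at 0 in all of them.

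The length of this cover differed between the groups at some of the genes. Among the 42 genes with cover in at least 1 list, both sgArid1a values lay below both sgScramble values at 13 (31.0%), against a background of 33.9%, and above them at 3 (7.14%), against 7.3%. The groups overlapped at the other 26. The median sgArid1a cover was 98.4% of the sgScramble cover over these 42 genes, and 95.7% over 13977 genes with cover. Shares of shorter and longer cover were thus near those of all genes. Without each library in turn, cover was shorter at 20, 21, 16 and 20 genes and longer at 8, 10, 9 and 7 (leaving out sgScramble replicates 1 and 2 and sgArid1a replicates 1 and 2, in that order), since fewer values then have to be ordered. The shares over all genes under the same settings were 49.9%, 49.7%, 44.2% and 57.9% shorter and 15.9%, 16.1%, 24.0% and 16.1% longer. With 2 libraries against 2, the exact two-sided permutation test cannot go below p = 0.333, the value at each of the 16 genes whose groups did not overlap, so no gene could pass a test at the usual threshold. All values of 4 below are in the order sgScramble replicate 1, sgScramble replicate 2, sgArid1a replicate 1 and sgArid1a replicate 2. Single regions described below as shorter or longer were not chosen by a rule, and the share of such regions over all genes was not counted.

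The ligand genes had almost no peak at their ends. Ifnb1, which encodes interferon beta and lies at chr4:88522025-88522794 on the minus strand, had gene-end cover of 0, 0, 269 and 0 bp. The 269 bp peak began 474 bp upstream of the start and stood at percentile 11.4 of fold enrichment in its list, where the percentile ranks the authors' fold value of a peak among all peaks of the same list. Only sgArid1a replicate 1 had it, so the groups overlapped. Farther out, a region at chr4:88530222-88531248 was covered at 1027, 947, 285 and 0 bp, shorter in both sgArid1a lists. A region at chr4:88514348-88516332 was covered at 1857, 1864, 1792 and 1813 bp, of like length in every library as deposited. With peaks at or above a −log10 q of 5, however, this region was in both sgScramble lists and in no sgArid1a list.

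Ifna4, an interferon alpha gene at chr4:88841816-88842459, had no gene-end peak in any list. Its window held a region at chr4:88837658-88839289 with 271, 688, 671 and 1577 bp, which overlapped between groups, and a 363 bp peak at chr4:88845421-88845783 in sgArid1a replicate 2 alone. The ISRE cores of its promoter, at positions -208 and -118 from the start, were under no peak.

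Both receptor chains were open at their starts in every library. Ifnar1 (chr16:91485032-91510523), the chain that carries the kinase TYK2, had gene-end cover of 1341, 1216, 1307 and 1329 bp, and the groups overlapped. Ifnar2 (chr16:91372783-91405589), the chain that carries JAK1, had 2382, 2442, 2186 and 2147 bp, a mean of 2412 ± 42.4 against 2166 ± 27.6 bp (SD, n = 2), a difference of -10.2% (sgArid1a minus sgScramble, as for all percentages of gene-end cover). The start region of Ifnar2 was covered at 1268, 1293, 1295 and 1295 bp, so it was not shorter. The shorter cover was at its downstream end, in a region that also holds the start of the neighbouring cytokine receptor gene Il10rb, with 1703, 1769, 1534 and 1483 bp.

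Ifnar2 had 8 regions in its window, the most of any of the 45 genes, and Ifnar1 had 5. The median of the 45 was 4 and the median over all genes was 3. These counts were not scaled to the length of the window. Of the 13 regions in both receptor windows, 9 were peaks in all 4 lists, against 53.0% of regions in windows of all genes. Of the 10 in both sgScramble lists none was sgScramble-only, the term used here for a region that was a peak in sgScramble replicates 1 and 2 but in no sgArid1a library. Over all genes that share was 11.8%, and 10 regions are too few to set apart from it. A region inside Ifnar2 at chr16:91401710-91402667 was covered at 946, 356, 237 and 0 bp, and its folds were at percentiles 8.91, 6.9 and 1.08 of the lists that held it. With peaks at or above a −log10 q of 5, this region and another beside Ifnar2, chr16:91363013-91364076, were sgScramble-only. At that threshold the share over all genes was 19.1%. Beside Ifnar1, a region at chr16:91512167-91512924 was covered at 497, 509, 636 and 609 bp, longer in both sgArid1a lists.

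The transcription factor genes were open at their starts, also in every library. Stat2 (chr10:128270498-128292853), the STAT particular to type I and type III interferon signals, had gene-end cover of 949, 1005, 844 and 958 bp, with overlapping groups and a mean fold percentile of 95.5 over the 4 lists. Irf9, the DNA-binding partner of STAT2, had 1059, 1172, 831 and 1111 bp, again overlapping, with a mean percentile of 93.1. Irf7 (chr7:141263183-141266499), which drives a later wave of interferon alpha genes, had 1240, 1298, 1198 and 1233 bp, so both sgArid1a values were lower, with a mean of 1269 ± 41 against 1216 ± 24.7 bp. Its fold percentile was lower than that of Stat2 and Irf9, at 33.0. A region inside Stat2 at chr10:128286621-128287208 was covered at 588, 539, 260 and 0 bp, shorter in both sgArid1a lists. Of the 12 regions of these 3 genes, 7 were in both sgScramble lists and none of these was sgScramble-only, against 11.8% over all genes, too few regions to set apart from that share.

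Sensors of viral RNA and of Z-form nucleic acid had 16 regions, of which 11 were in both sgScramble lists and none was sgScramble-only, again too few to set apart from the 11.8% over all genes. Ifih1, which encodes the double-stranded RNA sensor MDA5, had 1066, 1106, 1169 and 1116 bp at its ends and was among the 3 genes with longer cover in both sgArid1a lists, by 5.2%. Ddx58, which encodes RIG-I, had 1309, 1436, 1452 and 1330 bp, with overlapping groups. Dhx58, which encodes the RIG-I-like regulator LGP2, ranged from 704 to 1855 bp, and those extremes were the 2 sgArid1a libraries. Zbp1 (chr2:173206612-173218959), the Z-nucleic acid sensor that can trigger necroptosis, had 895, 1101, 649 and 654 bp, a mean of 998 ± 146 against 651.5 ± 3.54 bp, a difference of -34.7%. The Zbp1 peak was present in all 4 lists, so it was shorter and not absent in the sgArid1a libraries. Ddx60, a helicase linked to RIG-I signalling, had 1074, 1193, 1181 and 1093 bp, and its groups overlapped.

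The IFIT genes, whose proteins bind viral RNA lacking host cap marks, lie side by side on chromosome 19 and held both kinds of group-specific region. Their 11 regions comprised 7 peaks in all 4 lists, 1 sgScramble-only region and both of the sgArid1a-only regions found among the 45 genes (peaks in sgArid1a replicates 1 and 2 but in no sgScramble library). That 1 was of 9 regions in both sgScramble lists, a share near the 11.8% over all genes. For sgArid1a-only regions the share over all genes was 1.33%, and 2 regions are few to set against it. The sgScramble-only region lay at chr19:34576973-34577520, 439 bp beyond the downstream end of Ifit2, with 445, 435, 0 and 0 bp. It stood at percentiles 73.4 and 55.3 of the sgScramble lists and was the sole gene-end region of the 45 genes in that class.

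Gene-end cover at Ifit2 (chr19:34550550-34576534), which includes this region, was 1678, 1653, 1198 and 1169 bp, a difference of -28.9%. The Ifit2 start region was covered at 3255, 3242, 3099 and 3237 bp, lower in both sgArid1a lists but present at nearly full length. Cover at the ends of Ifit1 (895, 1135, 1098 and 900 bp), Ifit3 (1390, 1810, 1612 and 1885 bp) and Ifit3b (864, 1016, 1431 and 834 bp) overlapped between groups. The sgArid1a-only regions were short. One lay inside Ifit3 at chr19:34585966-34586277, with peaks of 267 and 312 bp at percentiles 16.0 and 2.09 of their lists. The other lay 6469 bp beside Ifit1 at chr19:34656478-34656772, with peaks of 275 and 249 bp at percentiles 26.9 and 66.6. A region upstream of Ifit1 at chr19:34631262-34632163 was covered at 675, 638, 0 and 412 bp, shorter in both sgArid1a lists. The next region towards Ifit1, chr19:34636861-34637554, had 542, 493, 680 and 612 bp, longer in both sgArid1a lists.

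**Figure D2:**
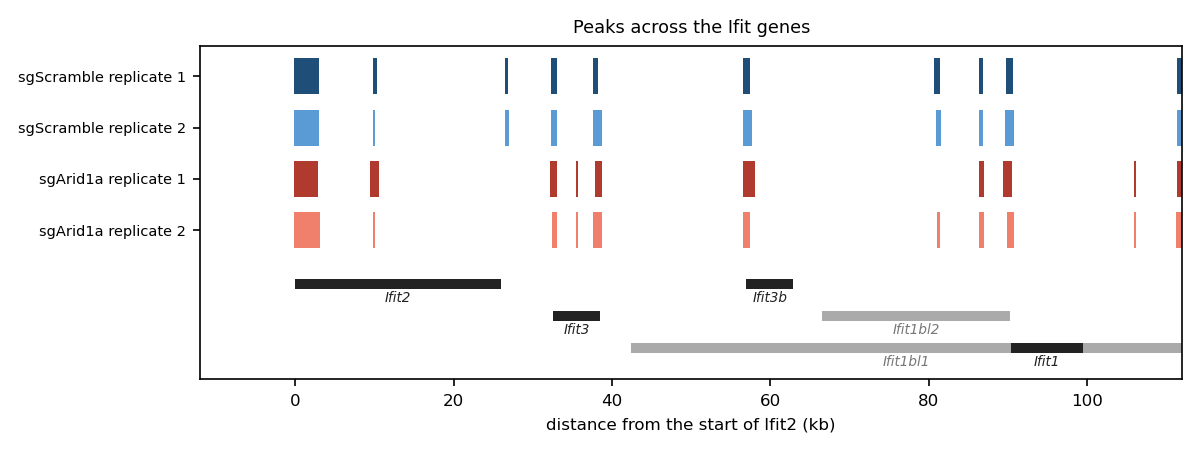
Peaks of the 4 libraries along the IFIT genes, by distance from the start of Ifit2 (x axis, kb), with 1 row per library, black bars for the IFIT genes and grey bars for other protein-coding genes. The start peaks recur in all rows, while the short peak just past the end of Ifit2 is in the sgScramble rows alone.

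The oligoadenylate synthetase genes, whose products activate RNase L on double-stranded RNA, were the least evenly open of the families. Of their 19 regions, 6 were peaks in all 4 lists, against 53.0% of regions in windows of all genes. Of the 10 in both sgScramble lists, 2 were sgScramble-only, against 11.8% over all genes. Both counts are of too few regions to set apart from those shares. Oas1a (chr5:120896256-120907544) had gene-end cover of 1228, 1020, 869 and 880 bp, a mean of 1124 ± 147 against 874.5 ± 7.78 bp, a difference of -22.2%. Oas1g, its neighbour, had 1619, 1206, 1567 and 1545 bp, with overlapping groups. Oasl2 had 1079, 729, 765 and 853 bp, which also overlapped. The groups thus overlapped at Oas1g and not at Oas1a. How reads were placed between these related genes was not tested.

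Oasl1 (chr5:114923143-114937911), a synthetase-like gene whose protein lacks enzyme activity, had 968, 1099, 899 and 0 bp at its ends, a mean of 1033.5 ± 92.6 against 449.5 ± 636 bp. This was the largest relative difference among the 16 genes whose groups did not overlap, -56.5%, and its size rests on the absence of a start peak in sgArid1a replicate 2, without which 899 bp stands against 968 and 1099 bp. In the 3 lists that held it, the start peak stood at percentiles 19.6, 5.39 and 46.0. Inside the gene, a region at chr5:114924934-114926623 was covered at 995, 1690, 0 and 0 bp, also at low percentiles (5.92 and 9.26). Oas2 had 604 bp at an end in sgScramble replicate 1 and 0 in the other libraries. Oas3 had 222, 0, 0 and 204 bp, from a peak inside the gene, and an sgScramble-only region 2086 bp beside it at chr5:120779770-120780282 with 484 and 268 bp.

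Other antiviral effector genes were open at an end in all libraries, and 19 of their 31 regions were peaks in all 4 lists, against 53.0% over all genes. Of the 24 in both sgScramble lists, 4 were sgScramble-only, against 11.8% over all genes, again few regions. Mx1, a dynamin-like GTPase gene, had gene-end cover of 976, 1027, 1052 and 1134 bp, longer in both sgArid1a lists by 9.14%. The same window held 2 sgScramble-only regions, at chr16:97435456-97437527 with 1958 and 810 bp and at chr16:97466517-97466888 with 365 and 347 bp. Mx1 therefore had longer cover at its ends and fewer regions around them in the sgArid1a libraries. Its neighbour Mx2 had 1377, 1299, 1309 and 1292 bp, and its groups overlapped.

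Rsad2, which encodes viperin, and Cmpk2, the nucleotide kinase gene beside it, had overlapping groups at 970, 1103, 959 and 1083 bp and at 1044, 1117, 1074 and 1056 bp. Between them, 3022 bp from the start of Cmpk2, an sgScramble-only region at chr12:26465750-26466095 had 341 and 346 bp, at percentiles 3.35 and 1.08. Bst2, which encodes the virion-tethering protein tetherin, had 1059, 1118, 1024 and 1153 bp, with equal group means of 1088.5 bp. Isg20, an exonuclease gene, had 1754, 1630, 1754 and 1754 bp.

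Eif2ak2, which encodes the kinase PKR, had 1669, 1488, 1394 and 1315 bp, a mean of 1578.5 ± 128 against 1354.5 ± 55.9 bp, a difference of -14.2%. Samd9l, an antiviral translation-control gene, had 1303, 1289, 1278 and 1278 bp, a difference of -1.39%, with an sgScramble-only region inside the gene at chr6:3383616-3384294 of 375 and 679 bp. Adar, which edits double-stranded RNA and keeps it from the sensors, had 2146, 2166, 2223 and 2125 bp, with overlapping groups. Its mean fold percentile of 97.7 was the second highest of the 45 genes, and its cover was of like length in every library.

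Isg15, which encodes a ubiquitin-like modifier, had no peak at either end in any library (chr4:156199424-156200818), although 3 regions of its window were peaks in all 4 lists. The nearest lay at chr4:156196411-156198327, 1097 bp away at the end of Agrn, with 1917, 1572, 1556 and 1581 bp. On the other side, a region at the end of Perm1, 2061 bp away, had 1221, 1215, 1035 and 1272 bp, and its groups overlapped. The Isg15 promoter, with its 3 ISRE cores, lay in the stretch without a peak between these regions.

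Usp18 (chr6:121245906-121270917), the protease that removes ISG15 and restrains the receptor, had the highest mean fold percentile of the 45 genes at 99.5, from a peak 967 bp beyond one of its ends. Its cover of 1147, 1185, 1204 and 1218 bp was longer in both sgArid1a lists, by 3.86%. An sgScramble-only region 5104 bp inside the gene, at chr6:121251010-121251523, had 393 and 430 bp. Herc6, the main mouse ISG15 ligase, stood at a percentile of 97.0 and had 1089, 1074, 1028 and 1101 bp, with overlapping groups. Trim30a was at 96.6, with 1014, 1083, 1039 and 1271 bp, and Ifnar2 at 96.7, which with Usp18 and Adar made up the 5 highest. Trim25, the ligase that modifies RIG-I, had 1341, 1044, 1001 and 1077 bp. Of the 17 regions in both sgScramble lists at Isg15, Usp18, Herc6, Trim25 and Trim30a, 1 was sgScramble-only, against 11.8% over all genes.

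**Figure D3:**
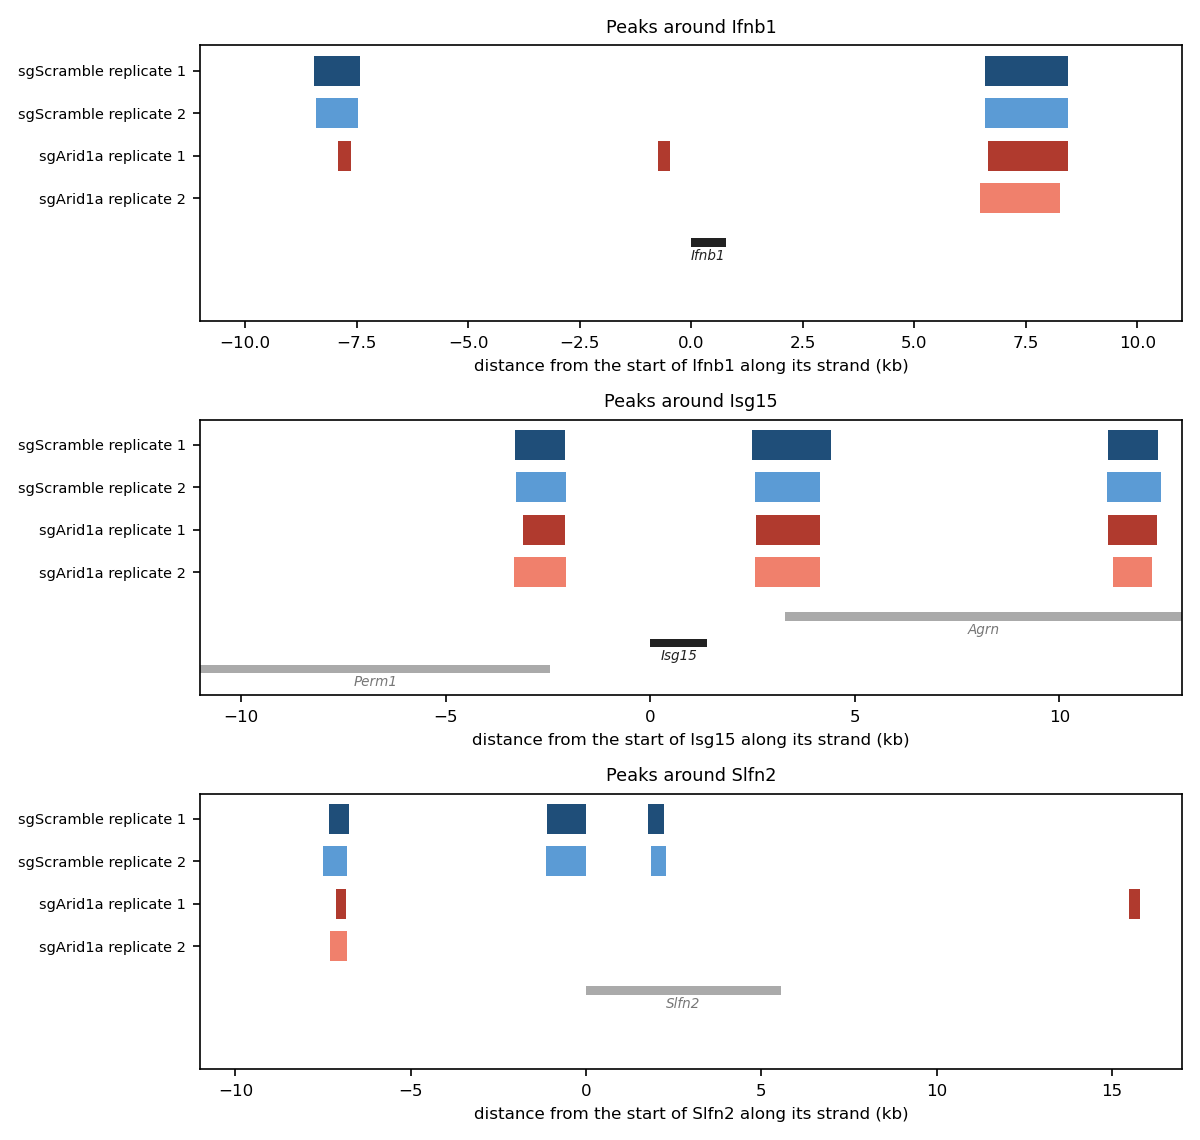
Peaks of the 4 libraries around Ifnb1, Isg15 and Slfn2, by distance from each gene's start along its strand (x axis, kb), with 1 row per library and black bars for the genes. Isg15 lies in a stretch without a peak in all 4 rows, and at Slfn2 the peaks at the start and inside the gene are in the sgScramble rows alone.

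The ADP-ribosylation genes were open at an end in all lists, with small differences. Parp9 and its partner ubiquitin ligase gene Dtx3l share a gene-end peak, and cover was 1066, 1073, 1046 and 1047 bp at Parp9 and 1623, 1630, 1603 and 1604 bp at Dtx3l, differences of -2.15% and -1.41%. These are not independent, since 1 peak gives both. Parp12 had 1402, 1373, 1273 and 1325 bp, a difference of -6.38%, and Parp14 had 1150, 1289, 1161 and 1150 bp, with overlapping groups. An sgScramble-only region lay 7078 bp beside Dtx3l at chr16:35918684-35919437, with 437 and 570 bp, and another 6413 bp beside Parp12 at chr6:39124762-39125073, with 295 and 236 bp. They were 2 of 9 regions in both sgScramble lists, against 11.8% over all genes, too few to set apart from that share.

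Among the other induced genes, Rtp4, a receptor-transport protein gene, had gene-end cover of 1962, 2001, 1561 and 1680 bp, a mean of 1981.5 ± 27.6 against 1620.5 ± 84.1 bp, a difference of -18.2%. Rtp4 also had 2 sgScramble-only regions inside the annotated gene, at chr16:23523312-23523866 with 555 and 264 bp and at chr16:23547731-23548638 with 308 and 898 bp. Its gene-end peak was weak in fold, at a mean percentile of 5.42. Ifi27, a mitochondrial protein gene, had 1615, 1642, 1496 and 1217 bp, a difference of -16.7%, and the peak 173 bp beyond one of its ends was absent from sgArid1a replicate 2 alone.

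Xaf1, a pro-apoptotic gene, had 1325, 1158, 1181 and 1304 bp at its ends, with overlapping groups, and an sgScramble-only region inside the gene at chr11:72311778-72312098 of 321 and 259 bp. Ifi35 had 1144, 1243, 1217 and 1327 bp. Ifi44 was the 1 gene of the 45 whose window held no region in any list. Of the 17 regions of these other induced genes in both sgScramble lists, 3 were sgScramble-only, against 11.8% over all genes, again few regions.

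**Figure D4:**
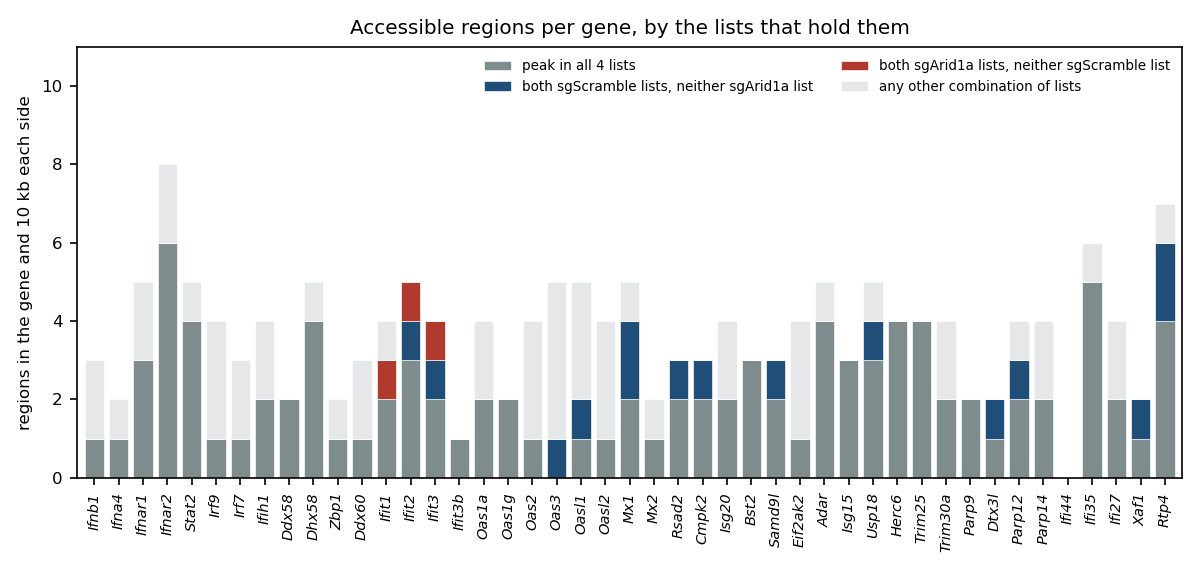
Number of regions in the window of each of the 45 genes (bars, grouped by role), split into peaks in all 4 lists, sgScramble-only regions, sgArid1a-only regions and other combinations. A region in the windows of several genes is drawn at each. The median is 4 regions per gene, Ifnar2 has 8 and Ifi44 none.

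Over the whole windows, the sgArid1a lists covered fewer bases. Cover was 125745, 122174, 99928 and 110215 bp, a mean of 123960 ± 2525 against 105072 ± 7274 bp (SD, n = 2), a difference of -18888 bp or -15.2%. Over the windows of all genes the difference was -20.8%. Regions present at gene ends were nearly as many in both groups, 46.0 ± 1.41 against 44.5 ± 0.707, and distal regions were fewer with sgArid1a, 67.0 ± 1.41 against 51.5 ± 6.36 (-23.1%, against -21.2% for distal regions of all genes). In numbers of regions, the groups thus differed at distal positions more than at gene ends.

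Of the 157 regions, 93 (59.2%) were peaks in all 4 lists, against 53.0% of 75459 regions in windows of all genes. Of 117 in both sgScramble lists, 13 (11.1%, 95% exact binomial interval 6.05 to 18.3) were sgScramble-only, against a background of 11.8%. Of 96 in both sgArid1a lists, 2 (2.08%, interval 0.253 to 7.32) were sgArid1a-only, against 1.33%. At least 1 sgScramble-only region was found at 13 of 44 genes with a region in both sgScramble lists (29.5%), against 30.1% of all genes. All of these shares were near those of all genes. The counts depend on the libraries: without sgScramble replicate 1 or without sgScramble replicate 2 there were 22 sgScramble-only regions, of 129 and 130 (19.5% and 17.7% over all genes). There were 13 sgArid1a-only regions of 117 without sgArid1a replicate 1 and 6 of 107 without sgArid1a replicate 2 (7.86% and 7.01% over all genes), so the shares over all genes moved as well. Neighbouring genes share regions (10 of the 157 lie in the windows of several of the 45 genes), so genes are not independent observations.

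Distal regions made up 12 of the 13 sgScramble-only regions, 6 inside the gene and 6 beside it. Of 58 distal regions in both sgScramble lists, these 12 were 20.7% (interval 11.2 to 33.4), against a background of 14.8%, which lies inside that interval. Of 40 distal regions in both sgArid1a lists, 2 were sgArid1a-only (5.0%, interval 0.611 to 16.9), against 1.73%. The 12 were weak peaks: their mean fold percentile in the sgScramble lists ranged from 0.383 to 33.9, with a median of 16.0, while the 37 distal regions in all 4 lists had a median of 72.8. Over all genes the corresponding medians were 25.4 and 60.8. Another 3 of the 58 were in sgArid1a replicate 1 alone of the sgArid1a lists and 6 in replicate 2 alone. Differences in length were not confined to weak peaks. Among stronger distal regions in all 4 lists, cover was shorter with sgArid1a inside Samd9l and beside Trim25, and longer beside Ifnar1. How many distal regions differed in this way was not counted.

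The share of distal regions that were sgScramble-only changed with the lists used. With the 4 lists cut to equal length it was 6.98%, against 8.09% over all genes, and with peaks at or above a −log10 q of 5 it was 12.5%, against 26.3%. With peaks above the median fold of each list it was 3.12%, against 18.4%. Under these 3 settings the share was below that of all genes, and it was above it under the other settings, which ranged from 15% to 30.5%. The higher share at the 45 genes thus did not hold for the stronger peaks. Counting regions at every position, 4 of 101 were sgScramble-only with lists of equal length, against 6.14% over all genes. They lay at Mx1 (chr16:97466517-97466888), Parp12 and Usp18 and, at a gene end, Ifit2, and all 4 were among the 13.

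**Figure D5:**
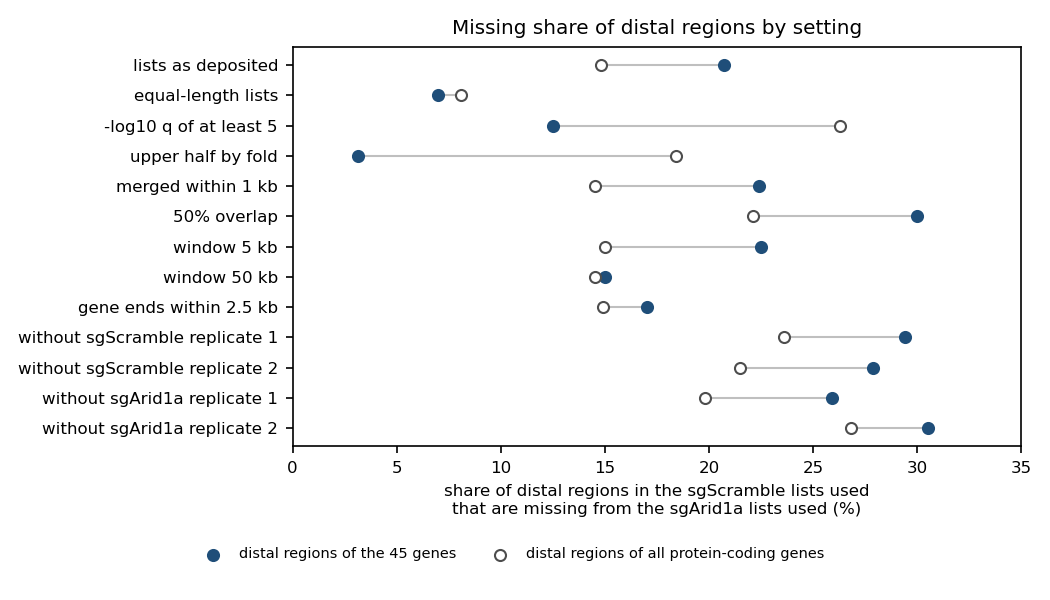
Share of distal regions in both sgScramble lists that were sgScramble-only (x axis, %) for the 45 genes and for all genes, under each setting (y axis). The 45 genes lie above all genes as deposited (20.7 against 14.8) and below them with lists of equal length, with the higher q threshold and with peaks above the median fold.

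A list of 60 other genes of the pathway was examined in the same way. Of 200 regions in both sgScramble lists, 15 (7.5%) were sgScramble-only, and of 113 distal ones 13 (11.5%), against the backgrounds of 11.8% and 14.8% above. By group, they were 4 of 34 regions at kinases and transcription factors, 3 of 26 at adaptors and kinases of interferon induction, 0 of 18 at negative regulators and 8 of 122 at other interferon-stimulated genes. Gene-end cover was present in all 4 lists at 52 of the 60 genes, against 57.2% of all genes. Of 54 with any cover, it was shorter in both sgArid1a lists at 15 and longer at 2, against 33.9% and 7.3% of all genes. Irf2, a repressor of interferon-induced genes, Znfx1, an RNA helicase gene, and Slfn2 each had 2 sgScramble-only regions, and 9 further genes had 1. At least 1 was thus found at 12 of the 60 genes. Over all genes with a region in both sgScramble lists the share was 30.1%, a condition not set on the 60.

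Slfn2 (chr11:83065112-83070678), a Schlafen gene that maintains quiescence in T cells, had gene-end cover of 988, 1002, 0 and 0 bp. Its start region, chr11:83063959-83065113, was covered at 1096, 1155, 0 and 0 bp, at percentiles 22.1 and 31.9 of the sgScramble lists. A region inside the gene, chr11:83066867-83067402, was covered at 481, 450, 0 and 0 bp. Ifi204, a DNA sensor gene named after its values were seen, had gene-end cover of 327, 598, 0 and 0 bp. None of the 45 genes had gene-end cover in both sgScramble lists and 0 in both sgArid1a lists, as these 2 did. The share of all genes with this pattern was not counted, so no contrast between the lists is drawn. Of gene-end regions over all genes, 3.08% were sgScramble-only. Tyk2, the kinase bound to IFNAR1, had 1414, 1305, 987 and 1076 bp, also named after its values were seen. The 1 sgArid1a-only region of this list lay in the window of Ifitm1, at chr7:140973920-140975154, with 436 and 1183 bp.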

How the data were processed

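The deposited data are 4 lists of broad peaks, 1 per library. The submitters' processing notes name STAR 2.5.3a, HOMER, GRCm38 and mm10 without their roles, and the peak caller, its thresholds and any transposase shift are steps not given in the sources used here. Columns of the deposited files follow the broadPeak layout without a header, and each peak carries the authors' score, the fold enrichment (a ratio) and −log10 p and q. The lowest deposited −log10 q was 1.0 and the lowest fold 1.29. The sample titles gave the group and the number of each library. Because the lists hold no counts, depth is unknown and no count test was run.

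Regions were merged over chromosomes 1 to 19, X and Y with a minimum overlap of 1 bp, in Python 3.11.15 with numpy 2.4.6, pandas 2.3.3, SciPy 1.17.1 and matplotlib 3.10.9. Genes, windows and promoters came from RefSeq tables of GRCm38.p6. Genome sequence outside the promoter entries was not used here. The classes of regions carry no test. Gene-end cover of each gene was compared with an exact permutation test over 2 against 2 libraries. Percentiles rank the authors' fold within a list. As a check of the code, differences were planted in the deposited lists, which hold 103629 merged regions. Of these, 199 of 200 planted sgScramble-only and 100 of 100 planted sgArid1a-only regions were recovered. This checks the assignment of classes only. It does not measure how well the libraries detect a difference at their depth and noise.

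Genes named in the text are those with an sgScramble-only or sgArid1a-only region, the 10 largest relative differences in gene-end cover whose groups did not overlap, genes with no gene-end peak, the 5 highest fold percentiles, and Ifnb1, Ifna4, Isg15, Irf7, Stat2, Ifnar1, Ifnar2 and Arid1a. Of the other pathway genes, those with the most sgScramble-only regions (up to 5) or with an sgArid1a-only region are named. The remaining genes of the 45 were added after their values were seen, to account for every gene. The genes and lists were chosen with earlier results of these data known. Alternatives were lists cut to equal length, a −log10 q of at least 5, peaks above the median fold, merging of nearby peaks, an overlap of 50%, windows of 5 kb and 50 kb, gene ends within 2.5 kb, gene starts alone, leaving out each library, and the replicate block.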

Additional observations from a re-analysis of the deposited data

How the results depend on the processing

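The difference in covered length of the windows kept its direction under every setting run. It was -11320.5 bp with lists of equal length, -6638.5 bp with peaks above the median fold and -46443 bp with 50 kb windows. Without each library in turn it was -24031.5 to -13744.5 bp. Over all genes it was negative under every setting as well, at -10.2%, -15.2%, -21.3% and -26.7% to -14.9% in the same order. The kept direction is thus not particular to these genes. The 13 sgScramble-only regions became 4 with lists of equal length, 7 with a −log10 q of at least 5, 4 with peaks above the median fold, 30 with 50 kb windows and 18 to 22 without each library, where 22 was reached without sgScramble replicate 1 and also without sgScramble replicate 2. The 12 distal ones, an alternative set chosen after seeing the data, became 3 of 43, 5 of 40, 1 of 32 and 27 of 180 under the same settings. Over all genes the distal shares were 8.09%, 26.3%, 18.4% and 14.5%. Without each library there were 15 to 20 distal ones (19.8% to 26.8% over all genes). Of the 7 at the q threshold (2 at Ifnar2 and 1 each at Ifnb1, Ifi27, Parp14, Mx1 and Ifit3) and the 4 above the median fold, 1 each was among the 13. The 2 sgArid1a-only regions became 1 of 94 with lists of equal length, 0 of 76 at the q threshold and 1 of 69 above the median fold. They became 1 of 75 with 5 kb windows and 5 of 240 with 50 kb windows. Over all genes these 5 settings gave 4.36%, 0.274%, 4.63%, 1.32% and 1.37%. Without each library there were 2 to 13 (2.71% to 7.86% over all genes), with 13 without sgArid1a replicate 1 and 6 without sgArid1a replicate 2. Without each library, shorter gene-end cover ranged from 16 to 21 genes (44.2% to 57.9% over all genes) and longer from 7 to 10 (15.9% to 24.0%). Longer cover was at 5 of 35 genes above the median fold (11.6% over all genes). Leaving out a library relaxes the condition in its group by construction, so these counts can only hold or grow, and the other causes were not tested.

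The labels do not say whether same-numbered libraries were prepared together. The correlation of the gene-end deviations of same-numbered libraries was -0.017, which cannot settle this with 2 libraries per group. With the replicate block, longer cover was at 6 genes in place of 3 (11.2% over all genes) and shorter cover at 17 in place of 13 (43.2% over all genes). The covered length and the counts of sgScramble-only and sgArid1a-only regions are the same with the block by construction, so their match is no check. No other result was run with the block. Without read counts, all of these results are limited to the presence and length of a peak and the authors' fold.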
